A study of Mus musculus with 6 samples.

Results

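Interferon-stimulated genes were followed in splenic T cells carrying CD4 and CD25, surface proteins typical of regulatory T (Treg) cells, from mice with and without Keap1. The set holds 43 genes, chosen by name as targets of type I interferons (alpha and beta) or type II interferon (gamma), and 16825 genes were tested in all. Their class was assigned from known function: 4 transcription factors, 6 nucleic acid sensors, 22 antiviral effectors and 11 GTPases. Of the 43, 39 had a transcript cluster (the array's unit of measurement) of their own, Ifi47, Tgtp1 and Gbp6 had only clusters shared with other genes, and no cluster was named for Ifi44. The intensity filter, which asked that a cluster reach its array's median value on 3 or more of the 6 arrays, passed 35 members. Mx1, Oas2, Oasl2 and Rsad2 did not pass it.

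The Keap1_KO group held 3 arrays (replicates B, C and D) from VAVcre Keap1 fl/fl mice, labelled Keap1 -/-, in which Cre driven by the Vav promoter deletes floxed Keap1 in blood-forming cells and their progeny, so not only in Treg cells. The WT group held 3 arrays (replicates A, D and F) labelled Keap1 +/+. All 6 samples were given as male, C57BL/6, untreated and from spleen, isolated by magnetic separation, and the labels contradict each other on age (10 to 12 months in one field, 6 to 10 weeks in another). The samples are labelled CD4+, although the series title writes CD4-CD25+, which may be a hyphen or a minus sign. The design text calls the triplicates independent, but the labels leave unsaid whether arrays come from different mice, and p-values measure only how far these arrays scatter, and some of that scatter may be technical. Values below are log2 and stand in the order A, D, F for WT and B, C, D for Keap1_KO.

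Type I interferons act through the receptor chains Ifnar1 and Ifnar2 and the kinases Jak1 and Tyk2, and the factors STAT2 and IRF9 then take part in transcription from the interferon-stimulated response element (ISRE). Interferon gamma acts through Ifngr1, Ifngr2, Jak1 and Jak2, and induces IRF1 and the GTPase families, in part through the gamma-activated site (GAS). The products detect viral nucleic acid, block viral translation and replication, or attack the vacuoles of intracellular parasites. KEAP1 marks the transcription factor NRF2 for degradation, and NRF2 is known to restrain parts of the interferon response in other cells.

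Array identity was checked on Keap1 and its pathway. Keap1 read 5.30, 5.41 and 5.77 in WT and 4.87, 4.89 and 4.70 in Keap1_KO, without overlap, although this cluster did not pass the filter. The NRF2 target Nqo1 read 4.68, 4.69 and 5.03 in WT and 8.50, 7.55 and 9.14 in Keap1_KO. Nqo1 passed the filter through the 3 Keap1_KO arrays alone, and Keap1 was dim. On both genes Keap1_KO B lay with the other Keap1_KO arrays, yet over all clusters it correlated best with WT A (0.988) and less with Keap1_KO C (0.969) and D (0.967). All 9 CD4 T cell markers and all 9 Treg markers with a cluster of their own stood at or above the array median everywhere. So did all 9 B cell, all 7 plasma cell and all 2 CD8 T cell markers, and 6 of 7 NK cell markers. Reaching the median therefore does not show how pure the cells were. The CD4 T cell markers also differed in level, with a list mean of 12.64 to 13.20 in WT and 12.93, 13.90 and 13.93 in Keap1_KO.

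No interferon-stimulated gene passed the genome-wide test, and members differed in direction. In limma with Benjamini-Hochberg adjustment over the 16825 genes, 0 of 35 members and 0% of all genes had an adjusted p under 0.05, and the lowest adjusted p of a member was 0.476. Of the 35, 19 had a higher mean in Keap1_KO and 16 a lower mean, with a median difference (Keap1_KO minus WT, log2) of 0.03 against 0.061 over all genes. Over all genes, higher means were in the majority (56.5%, or 68.6% with each array centred on its median, a step that shifted the median of all genes by 0.11). In bulk RNA of this kind, fewer cells of a type and less RNA per cell cannot be told apart.

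Members whose 2 groups of arrays did not overlap lay mostly on the lower side. In 6 members (17.1%) every Keap1_KO array lay below every WT array, against 4.96% of all genes. In 1 member (2.86%) every Keap1_KO array lay above, against 9.11% of all genes. At an unadjusted limma p under 0.05 the counts were 5 lower (background 1.92%) and 1 higher (background 8.38%). The lower members were the sensor gene Ddx60, the effector genes Ifit2, Ifit3, Oasl1 and Parp14, and the GTPase gene Iigp1. After quantile normalization was repeated, 5 were lower without overlap, with Ifit1 in place of Ifit2 and Ifit3 (background 2.83%), and with centred arrays all but Ifit2 were (background 2.28%).

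**Figure D1:**
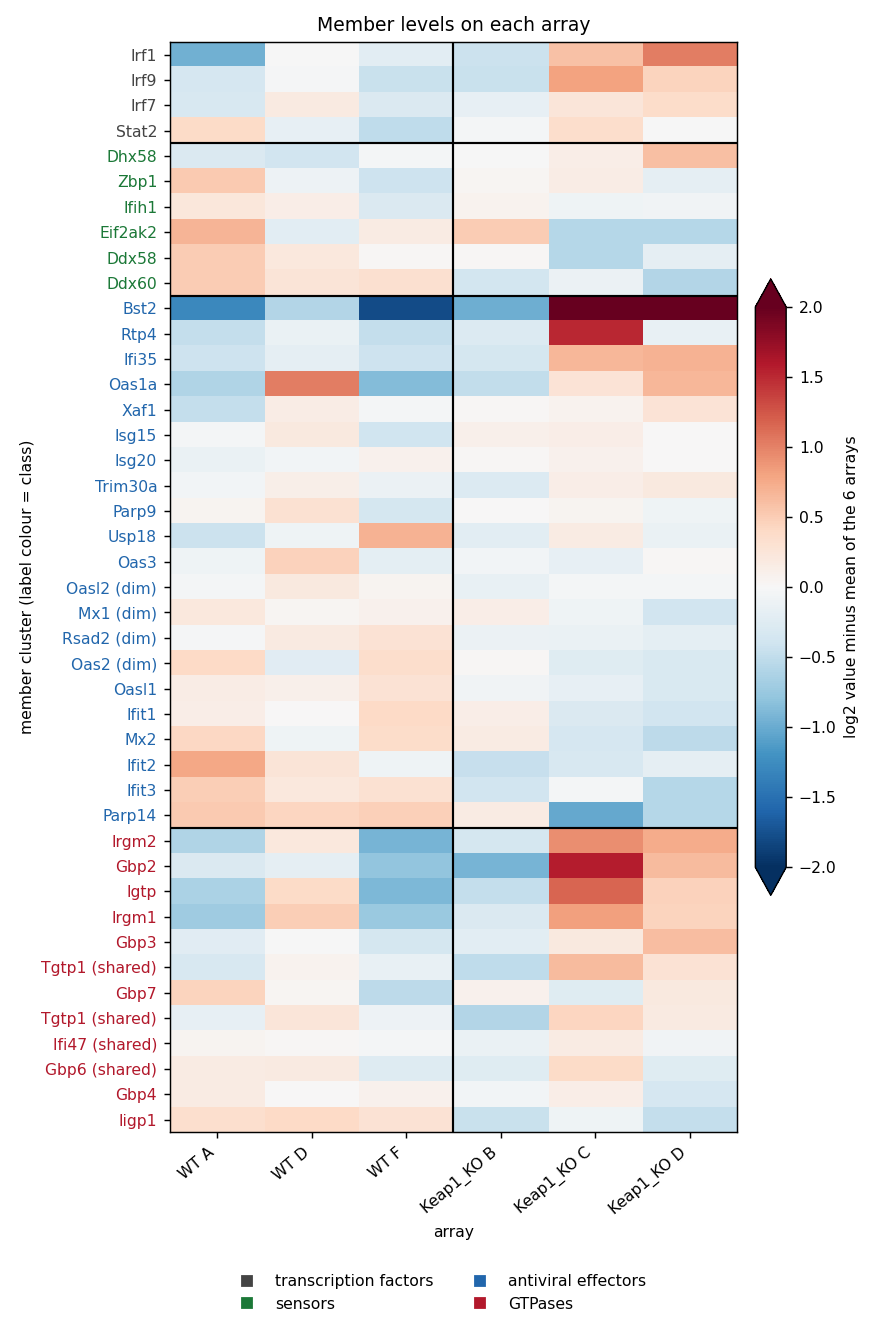
Level of each member cluster (rows, grouped by class) on each of the 6 arrays (columns), as the log2 value minus the mean of the 6 arrays. "Dim" marks clusters below the intensity filter and "shared" clusters that carry several gene names. Bst2, Irf1, Irf9, Irgm2, Gbp2, Igtp and Irgm1 are high on Keap1_KO C and D but not on Keap1_KO B, whereas Ddx60, Ifit2, Ifit3 and Iigp1 are below the WT arrays on Keap1_KO B as well.

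The transcription factors had higher means in Keap1_KO, none of them past the test. The median difference of the 4 was 0.41, and it was 0.25 without Keap1_KO C and 0.67 without Keap1_KO B. Irf1, the factor most directly induced by interferon gamma, read 7.19, 8.14 and 7.93 in WT and 7.71, 8.73 and 9.16 in Keap1_KO. Keap1_KO C and D exceeded every WT array and Keap1_KO B lay among them, for a difference of 0.78 (SE 0.43, limma adjusted p = 0.498). It was 0.50 without WT A, 0.47 without Keap1_KO D and 1.19 without Keap1_KO B. A second, dimmer cluster of Irf1 read 6.49, 6.82 and 7.16 against 5.99, 8.06 and 7.32, so it placed Keap1_KO B below all WT arrays. Irf9, the DNA-binding part of the type I complex, read 7.48, 7.79 and 7.37 in WT and 7.37, 8.62 and 8.26 in Keap1_KO, again high on C and D alone (difference 0.53, SE 0.34; 0.27 without Keap1_KO C and 0.89 without Keap1_KO B). Irf7, which amplifies type I interferon production, differed by 0.29 (SE 0.23), and Stat2 by 0.20 (SE 0.27), and for both the arrays overlapped, with the sign of Stat2 turned under array weights.

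The sensors leaned the other way, with 5 of 6 means lower in Keap1_KO and a median difference of -0.24, which ranged from -0.36 (Keap1_KO B left out) to -0.075 (WT A left out); leaving out Keap1_KO C or D gave -0.16 or -0.14, and array weights gave -0.54. Ddx60, a helicase-like protein that promotes RNA sensing, read 9.0, 8.75 and 8.82 in WT and 8.13, 8.39 and 7.91 in Keap1_KO. All Keap1_KO arrays were below all WT arrays, 1.64-fold on average (difference -0.71, SE 0.19, limma adjusted p = 0.476, exact two-sided permutation p = 0.1, the smallest that 3 arrays against 3 allow). Ddx58 encodes RIG-I, the receptor for viral RNA ends. It read 10.49, 10.19 and 10.00 against 10.00, 9.42 and 9.80, with Keap1_KO B level with WT F to 2 decimals (difference -0.49, SE 0.22). Eif2ak2, the kinase PKR that stops translation on sensing double-stranded RNA, read 10.25, 9.37 and 9.74 in WT and 10.09, 9.0 and 9.0 in Keap1_KO. Keap1_KO C and D were thus below all WT arrays and Keap1_KO B was not.

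Dhx58 encodes LGP2, which regulates the other RNA helicase receptors, and was the sole sensor with a higher mean. It read 6.16, 6.06 and 6.40 in WT and 6.43, 6.57 and 7.05 in Keap1_KO (difference 0.48, SE 0.22, limma adjusted p = 0.478), and 0.29 without Keap1_KO D. The groups were separated by 6.40 on WT F and 6.43 on Keap1_KO B, a narrow margin. Ifih1 (MDA5) differed by -0.054 (SE 0.19) and the nucleic acid sensor and cell death regulator Zbp1 by -0.0013 (SE 0.27), and the sign of both turned positive with centred arrays and after repeated quantile normalization.

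Among the antiviral effectors all 3 IFIT genes had lower means in Keap1_KO. IFIT proteins bind foreign RNA and block its translation, and in the reference gene table Ifit2 and Ifit3 are direct neighbours. Ifit3 read 8.0, 7.71 and 7.81 in WT and 7.12, 7.46 and 6.94 in Keap1_KO. Ifit2 read 10.18, 9.67 and 9.32 against 8.94, 9.09 and 9.23. In both genes every Keap1_KO array was below every WT array, by 0.67 (SE 0.20) for Ifit3 and 0.64 (SE 0.25) for Ifit2, whose difference was -0.41 without WT A. Both had a limma adjusted p of 0.476 and an exact permutation p of 0.1. Ifit1 read 8.28, 8.15 and 8.55 against 8.27, 7.86 and 7.76 and overlapped through Keap1_KO B (difference -0.36, SE 0.21).

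Promoter sequences are shown for Ifit3 and Ddx60, the 2 tested members lower on every Keap1_KO array for which a match to the ISRE core was found upstream of the start. Of the other tested members lower on every Keap1_KO array, Ifit2 and Oasl1 were searched without a match. Parp14 and Iigp1 had no promoter sequence to search. Sequences are from RefSeq, build GRCm38.p6, in the direction of transcription, and capitals mark matches. The ISRE core was searched as GAAA, any 2 bases and GAAA again, or TTTC, any 2 bases and TTTC for the other strand. The Ifit3 stretch is chr19:34583343-34583436 on the plus strand and the Ddx60 stretch chr8:61928004-61928086 on the plus strand.
Ifit3: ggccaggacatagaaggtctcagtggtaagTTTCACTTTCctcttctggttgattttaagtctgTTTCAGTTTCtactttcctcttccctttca
Ddx60: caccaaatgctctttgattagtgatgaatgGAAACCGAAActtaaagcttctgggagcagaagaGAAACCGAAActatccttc
Each stretch holds 2 matches. Of 31 members with a promoter in the table, 20 held an ISRE core within the 300 bases around the start, against 3.99% of all 27025 genes there, and a match is a description of letters and not of binding.

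Parp14 and Oasl1 were the other effectors without overlap. Parp14, an ADP-ribosyltransferase, read 12.08, 11.99 and 12.03 in WT and 11.73, 10.54 and 10.99 in Keap1_KO. The WT arrays lay within a narrow band and all Keap1_KO arrays below it, with Keap1_KO B nearest (difference -0.95, SE 0.31, limma adjusted p = 0.476). Oasl1 belongs to the 2'-5'-oligoadenylate synthetase-like proteins, which have roles in RNA sensing and translation control. It read 5.85, 5.81 and 6.00 against 5.64, 5.54 and 5.40, a difference of -0.36 (SE 0.16) at a level close to the array median. The related synthetase genes that activate RNase L showed no such separation: Oas1a ranged from 6.82 to 8.71 among the WT arrays alone, and Oas3 differed by -0.13 (SE 0.22). Oas2 and Oasl2, which read 4.44 to 5.18 over both, were below the filter.

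**Figure D2:**
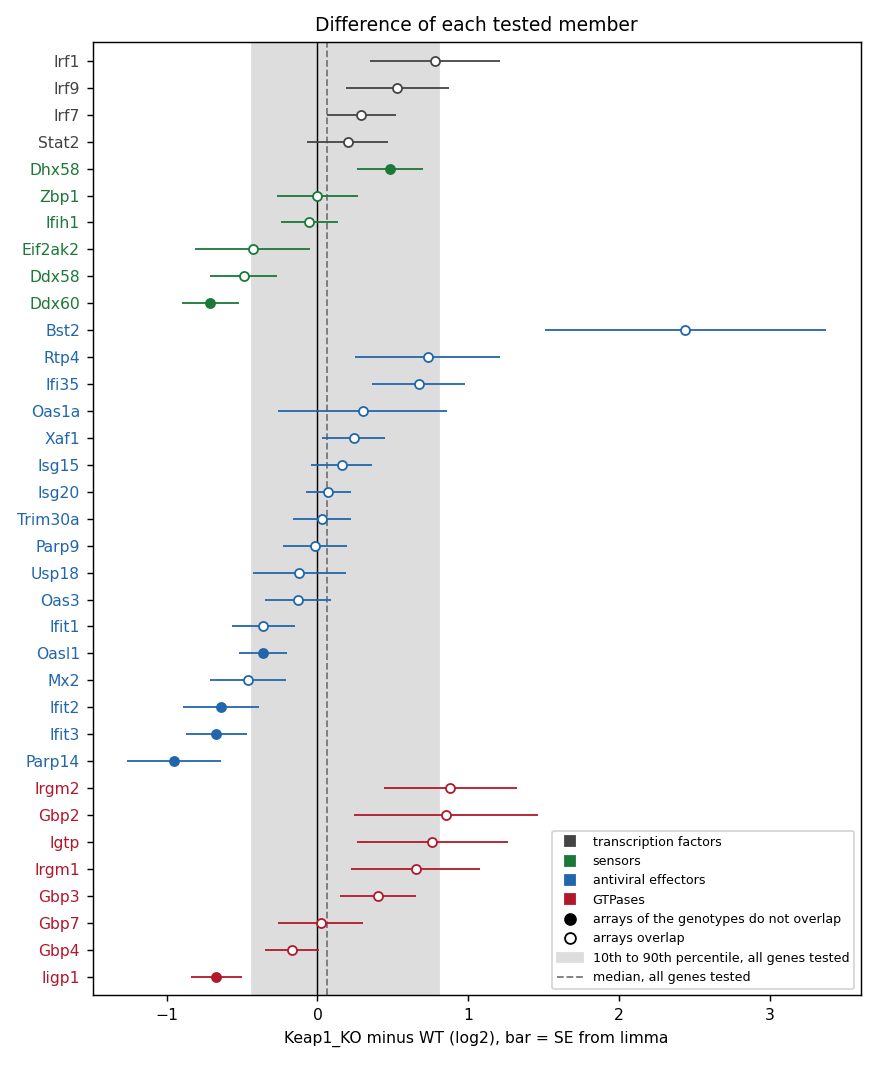
Difference of each of the 35 tested members (Keap1_KO minus WT, log2) with its standard error from limma, by class. Filled points are members whose genotypes do not overlap, the grey band spans the 10th to 90th percentile of all genes tested (-0.43 to 0.81) and the dashed line is their median (0.06). Bst2 has both the highest difference (2.44) and a wide error, and the filled points are on the left except Dhx58.

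Bst2 had the highest difference of all members and depended on 2 arrays. Bst2 encodes tetherin, which holds budding virus at the cell surface and is also a marker of plasmacytoid dendritic cells and plasma cells. It read 8.84, 9.54 and 8.33 in WT and 9.15, 12.19 and 12.68 in Keap1_KO. Keap1_KO C and D were far above every WT array and Keap1_KO B lay within the WT range, for a mean 5.41-fold higher in Keap1_KO (difference 2.44, SE 0.93, limma adjusted p = 0.476, exact permutation p = 0.2). Without Keap1_KO B the difference was 3.53 (SE 0.39, limma adjusted p = 0.0344).

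The cell types that carry Bst2 were measured beside it. Of 8 plasmacytoid dendritic cell markers, 7 stood at or above the array median on all arrays, with a list mean of 6.30 to 6.57 in WT and 6.77, 6.45 and 6.60 in Keap1_KO. Siglech, a defining marker of these cells, read 6.39, 6.12 and 6.47 in WT and 6.56, 6.57 and 6.39 in Keap1_KO, with overlap. Of the 7 tested markers of the list, 2 lay higher in Keap1_KO without overlap (9.11% of all genes did) and 0 lower. The mean was higher for 5 and lower for 2, with differences from -0.62 to 0.77. At an unadjusted limma p under 0.05, 2 were higher (background 8.38%) and 1 lower (background 1.92%). All 7 plasma cell markers stood at or above the median, with a list mean of 7.03 to 7.82 in WT and 6.98, 7.90 and 8.81 in Keap1_KO. The CD4 T cell, CD8 T cell and neutrophil lists were also lowest on Keap1_KO B and highest on Keap1_KO D within that genotype, as Bst2 was. The mean deviation of all genes tested from their 6-array means had the same order (-0.045, 0.08 and 0.17). The part of any of these cell types in the Bst2 value was not tested, and log2 array values have no zero at which a marker is absent.

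Ifi35 and Rtp4 also had higher means. Ifi35, an interferon-induced leucine zipper protein, read 7.48, 7.72 and 7.49 against 7.55, 8.57 and 8.60, with Keap1_KO B again among the WT arrays (difference 0.67, SE 0.31). Without Keap1_KO B it differed by 1.02 (SE 0.18, limma adjusted p = 0.0489). Rtp4, which dampens interferon signalling, read 6.89, 7.23 and 6.89 against 7.10, 8.88 and 7.22, a mean difference of 0.73 that was 0.16 without Keap1_KO C. Ifi35, Eif2ak2, Ifit1, Isg15, Usp18 and Mx2 were given array by array after their values were seen.

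Several well known markers of an interferon response outside the IFIT family differed little or were dim. Isg15, the ubiquitin-like modifier, read 8.80, 9.02 and 8.43 in WT and 8.93, 8.97 and 8.84 in Keap1_KO (difference 0.16, SE 0.20). Usp18, which removes ISG15 and restrains the type I receptor, read 7.05, 7.39 and 8.17 against 7.27, 7.64 and 7.34 (difference -0.12, SE 0.31). Isg20, Trim30a, Xaf1 and Parp9 differed by -0.016 to 0.24, with overlapping arrays in each, and the sign of Parp9 and Trim30a turned after repeated quantile normalization. Mx1 (4.69 to 5.29) and Rsad2 (4.93 to 5.42), both strongly induced by type I interferon in many cells, were below the filter on all 6 arrays. Rsad2, which encodes viperin, read 5.11, 5.30 and 5.42 in WT and 5.01, 4.99 and 4.93 in Keap1_KO, lower on each Keap1_KO array at a level where the size of a difference is not reliable. Mx2 read 6.21, 5.71 and 6.16 against 5.97, 5.46 and 5.28, a larger difference of -0.46 (SE 0.25), with overlap. The 17 tested effectors together had a median difference of -0.016, which was 0.10 with centred arrays.

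**Figure D3:**
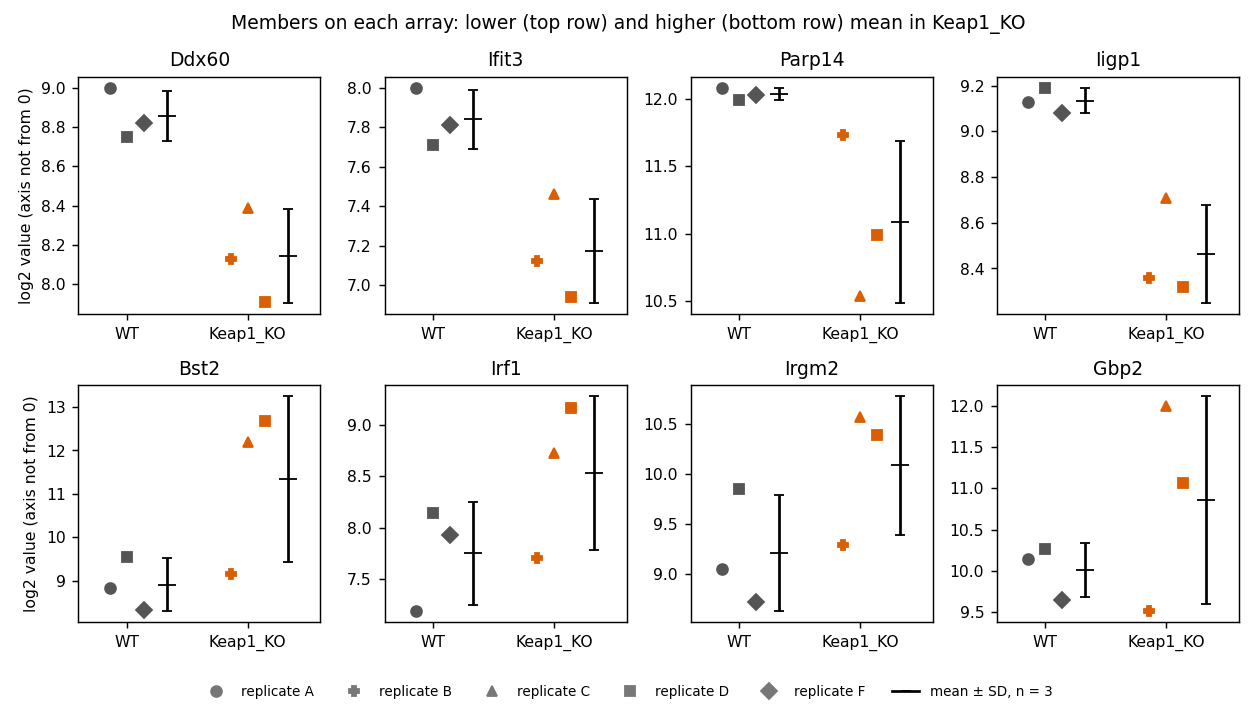
Log2 values of 8 members on each array by genotype, with replicate letters as symbols and the mean ± SD of 3 arrays beside them; the axes do not start at 0. In the top row (Ddx60, Ifit3, Parp14, Iigp1) each Keap1_KO array is below each WT array, and in the bottom row (Bst2, Irf1, Irgm2, Gbp2) Keap1_KO B lies among or below the WT arrays.

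The GTPases had mostly higher means in Keap1_KO, and apart from Gbp7 these were carried by the same 2 arrays. Immunity-related GTPases (IRG) and guanylate-binding proteins (GBP) are induced above all by interferon gamma and disrupt the vacuoles of intracellular parasites and bacteria. Of 8 tested, 6 had higher means, and no GTPase lay wholly above WT. The median difference was 0.52, and it was 0.33 without Keap1_KO C and 0.78 without Keap1_KO B. Irgm2, a regulatory IRG, read 9.05, 9.85 and 8.72 in WT and 9.29, 10.57 and 10.39 in Keap1_KO. Keap1_KO B lay between WT A and WT D (difference 0.88, SE 0.44, limma adjusted p = 0.484).

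Igtp and Irgm1, named after their values were seen, repeated this order. Igtp (Irgm3) read 13.93, 14.94 and 13.67 against 14.08, 15.72 and 15.03, and Irgm1 read 8.71, 9.92 and 8.68 against 9.14, 10.24 and 9.87. In all 3 genes WT D was the highest WT array and Keap1_KO B the lowest Keap1_KO array, and in Irgm1 WT D also exceeded Keap1_KO D. The differences were 0.76 (SE 0.50) for Igtp and 0.65 (SE 0.43) for Irgm1, both smaller than the range among the WT arrays. For Igtp it was 0.37 without Keap1_KO C and 1.19 without Keap1_KO B, and for Irgm1 0.41 without Keap1_KO C and 1.06 without WT D.

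Igtp and Irgm2 lie next to each other in the reference table and have near-identical stretches upstream of their starts, shown here with that of the related gene Tgtp1 because all 3 hold a GAS core followed by an ISRE core. The GAS core was searched as TTCNNNGAA, which reads the same on both strands, and capitals mark both cores. The stretches, from RefSeq build GRCm38.p6, are chr11:58199481-58199551 (plus strand) for Igtp, chr11:58214872-58214942 (plus strand) for Irgm2 and chr11:48992294-48992364 (minus strand) for Tgtp1.
Igtp: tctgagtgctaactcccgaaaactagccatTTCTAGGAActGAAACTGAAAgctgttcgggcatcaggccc
Irgm2: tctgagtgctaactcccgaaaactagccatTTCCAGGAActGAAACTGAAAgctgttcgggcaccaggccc
Tgtp1: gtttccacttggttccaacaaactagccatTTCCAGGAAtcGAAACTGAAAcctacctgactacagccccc
The Igtp and Irgm2 stretches differ at 2 of 71 bases (97.2% identical), and Tgtp1 is 57.7% and 60.6% identical to them. The cores are 2 bases apart in each. A GAS and an ISRE core stood together in 4 of 9 GTPase and 2 of 19 effector promoter windows. They did so in 1 of 4 sensor windows, 0 of 6 transcription factor windows and 0.454% of all 32851 windows. Alone, the ISRE core was in 3.44% and the GAS core in 8.30% of all windows.

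Tgtp1 itself could be read only through clusters shared with near-identical copies. The cluster shared with Tgtp2 read 11.01, 11.41 and 11.08 in WT and 10.59, 11.61 and 11.35 in Keap1_KO, and the one shared with Tgtp2 and Gm12185 read 9.70, 10.08 and 9.87 against 9.50, 10.64 and 10.30. On both, Keap1_KO B was the lowest array and Keap1_KO C the highest. The clusters of Ifi47 (shared with Olfr56) and Gbp6 (shared with Gbp10) differed by -0.029 and -0.055, with overlap. Probes may also fail to separate other IRG and GBP paralogs, so their values are uncertain to that extent.

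Iigp1 went the other way from Igtp, Irgm1 and Irgm2, the other tested IRG genes. It encodes Irga6, an effector IRG that coats the parasite vacuole, and read 9.13, 9.19 and 9.08 in WT and 8.36, 8.71 and 8.32 in Keap1_KO. The WT arrays lay in a narrow band and all Keap1_KO arrays below it, 1.59-fold on average. The difference was -0.67 (SE 0.17, limma p = 0.00732 before and 0.476 after adjustment, exact permutation p = 0.1). Without Keap1_KO B it was -0.62.

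The GBP genes differed among themselves. Gbp2 read 10.14, 10.26 and 9.64 in WT and 9.51, 12.00 and 11.07 in Keap1_KO, with Keap1_KO B the lowest of all 6 arrays and Keap1_KO C the highest (difference 0.85, SE 0.61). Without Keap1_KO B it was 1.52 (SE 0.35, limma adjusted p = 0.0683), and without Keap1_KO C it was 0.28 (adjusted p = 0.902). Its promoter, chr3:142620574-142620633 on the plus strand of GRCm38.p6 (RefSeq), held an ISRE core on the opposite strand and no GAS core, and is shown with that of Bst2, chr8:71537567-71537638 on the minus strand, where a GAS core runs into overlapping ISRE cores.
Gbp2: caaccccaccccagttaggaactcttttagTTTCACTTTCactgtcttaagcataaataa
Bst2: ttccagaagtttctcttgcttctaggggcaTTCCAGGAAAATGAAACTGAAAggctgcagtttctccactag
Gbp3, a neighbour of Gbp7 in the reference table, differed by 0.40 (SE 0.25). Gbp7 differed by 0.021 (SE 0.28), with a sign that turned after repeated quantile normalization, under array weights and without Keap1_KO B (-0.012). Gbp4 read 11.40, 11.24 and 11.31 against 11.18, 11.37 and 10.89, a difference of -0.17 (SE 0.18) that was -0.041 without Keap1_KO D, -0.28 without Keap1_KO C and -0.056 with centred arrays.

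Set side by side, the 8 tested GTPases had a median difference of 0.52 and the 23 antiviral effectors and sensors one of -0.05. Over all genes it was 0.061. The gap of 0.58 between GTPases and effectors and sensors ranged from 0.40 to 0.83 when single arrays were left out. It rests on the members counted. Ifi47, Tgtp1 and Gbp6 are not in the GTPase median, and their shared clusters differed by only -0.055 to 0.26. Among the tested GTPases the median was 0.71 for IRG genes and 0.21 for GBP genes. Per array, the mean deviation of the GTPases minus that of the effectors and sensors was -0.22, 0.08 and -0.38 in WT and -0.22, 0.48 and 0.26 in Keap1_KO. The gap was therefore positive on WT D as well as on Keap1_KO C and D, and Keap1_KO B was at the level of WT A to 2 decimals. These are descriptions of lists chosen with results of these data known, and carry no test.

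**Figure D4:**
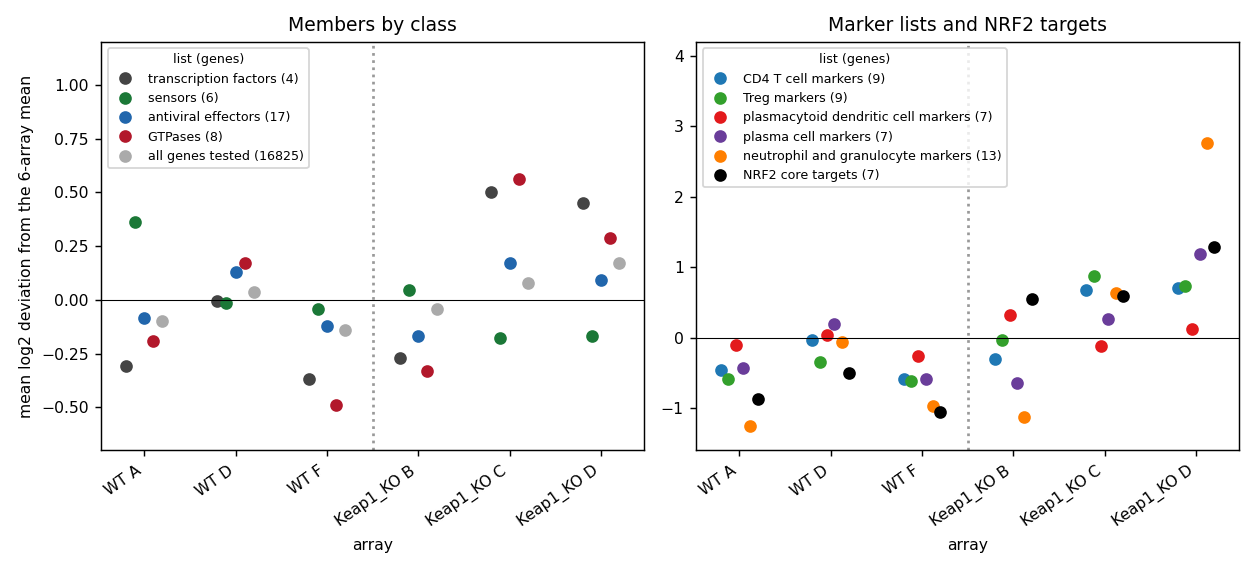
Mean log2 deviation from the 6-array mean of each list on each array, for the members by class and all genes tested (left) and for marker lists and NRF2 targets (right), with the number of genes in brackets. The GTPases and transcription factors are highest on Keap1_KO C and D. So are all genes tested and the CD4 T cell, Treg, plasma cell and neutrophil markers. NRF2 targets are high on Keap1_KO B too (0.55).

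The CD4 T cell markers had mean deviations of -0.46, -0.03 and -0.59 in WT and -0.30, 0.67 and 0.71 in Keap1_KO, and the GTPases -0.19, 0.17 and -0.49 and -0.33, 0.56 and 0.29. On both lists WT D was the highest WT array and Keap1_KO B the lowest Keap1_KO array. This order was not particular to them. All genes tested had it too, at -0.1, 0.035 and -0.14 in WT and -0.045, 0.08 and 0.17 in Keap1_KO. So did the NK cell, plasma cell, macrophage and neutrophil lists. The Treg markers had -0.59, -0.35 and -0.62 in WT and -0.041, 0.87 and 0.74 in Keap1_KO, a list mean higher without overlap. Single Treg markers differed from -0.11 to 2.40. Of the 9 tested, 7 had a higher and 2 a lower mean (median difference 0.64), and 2 lay above WT without overlap (background 9.11%). At an unadjusted limma p under 0.05, 5 were higher (background 8.38%) and 0 lower (background 1.92%). The 2 with a lower mean were Il2ra (-0.046) and Ikzf2 (-0.11). Ctla4 differed by 0.081 and Foxp3, on a shared cluster outside that count, by 0.98, and all 4 overlapped. All 9 CD4 T cell markers tested had a higher mean (background 56.5%), with a median difference of 0.94. Of them 1 lay above WT without overlap, and 4 were higher at an unadjusted limma p under 0.05. The CD8 T cell markers, at -0.42, 0.37 and -1.07 and -0.74, 0.90 and 0.96, also had WT D highest in WT and Keap1_KO B lowest in Keap1_KO. B cell markers had a list mean of 6.22 to 8.01 in WT and 6.79 to 8.33 in Keap1_KO, and NK cell markers 6.46 to 8.60 and 7.44 to 8.93. Neutrophil markers (15 listed, 11 at or above the median on all arrays) had a list mean of 7.15 to 8.21 in WT and 7.27, 8.83 and 10.76 in Keap1_KO. Of the 13 neutrophil markers tested, 12 had a higher mean (background 56.5%) and 1 a lower mean, with a median difference of 1.85. In this list 1 lay above WT without overlap (background 9.11%), and 2 were higher at an unadjusted limma p under 0.05 (background 8.38%). Macrophage and monocyte markers (14 listed, 7 at or above the median on all arrays) had a list mean of 6.56 to 7.29 in WT and 7.02 to 7.55 in Keap1_KO. The macrophage markers Csf1r, Adgre1, Fcgr1, C1qa and C1qb were among those below the median on at least 1 array. Of the 9 macrophage and monocyte markers tested, 8 had a higher mean in Keap1_KO (background 56.5%) and 1 a lower mean. Their differences ran from -0.01 to 2.86, and 1 lay above WT without overlap (background 9.11%). The part of these cells and of T cell RNA yield in the member differences was not tested.

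The interferon genes and receptors did not differ past the test. Ifng, the type II ligand, read 7.21, 6.71 and 6.27 in WT and 6.33, 5.17 and 6.24 in Keap1_KO. Its mean was lower in Keap1_KO by 0.82 (SE 0.39, limma adjusted p = 0.479), with Keap1_KO B above WT F. Of 21 type I, II and III interferon genes listed, 10 passed the filter, 3 with a higher and 7 with a lower mean, and Ifna4 (5.39 to 6.37) and Ifnk (5.02 to 6.23) overlapped near the array medians. Ifnz, a type I interferon, read 5.54, 5.37 and 5.84 against 5.21, 5.28 and 5.33, lower without overlap at that dim level (difference -0.31, SE 0.18).

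Among receptors and kinases, Ifngr2 read 9.20, 9.46 and 9.10 against 9.56, 9.47 and 9.61, higher without overlap but with WT D and Keap1_KO C nearly level (difference 0.29, SE 0.17). Ifngr1 read 12.62, 14.68 and 12.57 against 12.94, 13.51 and 15.40, wide in both genotypes. Ifnar2 differed by 0.53 (SE 0.26) and Ifnar1 by -0.29 (SE 0.27), with overlap in both. Tyk2 read 7.24, 7.52 and 7.13 against 7.58, 7.89 and 7.90, higher on each Keap1_KO array (difference 0.49, SE 0.19, limma adjusted p = 0.476). Jak1 and Jak2 differed by -0.19 and -0.31, with overlap.

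Upstream adaptors and other factors of the pathway did not pass the test either. Of 97 tested pathway genes outside the set, 0 passed, 62 had a higher mean (56.5% of all genes did), 13 lay above WT without overlap (9.11% of all genes) and 2 below (4.96% of all genes). Sting1, the adaptor of cytosolic DNA sensing, read 8.92, 9.93 and 8.91 against 9.91, 11.72 and 11.79, with Keap1_KO B just under WT D (difference 1.89, SE 0.57, limma adjusted p = 0.476). Mavs, the adaptor of RIG-I and MDA5, read 6.42, 6.67 and 6.16 against 6.70, 7.25 and 7.40, higher on each Keap1_KO array (difference 0.70, SE 0.25), and Myd88 differed by 0.84 (SE 0.30). Irf5 (0.56, SE 0.21) was higher without overlap, whereas Irf3 (0.75, SE 0.31) and Irf8 (0.37, SE 0.25) overlapped. The negative regulators Ptpn6 (1.07, SE 0.42) and Socs1 (0.24, SE 0.16) were higher without overlap and Ptpn1 (0.50, SE 0.27) was not.

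Interferon-stimulated genes outside the set included larger differences than any member but Bst2. Of 56 tested, 39 had a higher mean (background 56.5%), 7 lay above WT without overlap (background 9.11%) and 1 below (background 4.96%). Casp1, the inflammasome protease, read 10.21, 10.28 and 9.08 in WT and 10.59, 11.93 and 11.79 in Keap1_KO (difference 1.58, SE 0.48, limma adjusted p = 0.476). The immunoproteasome subunit gene Psmb10 read 7.45, 8.11 and 6.93 against 7.86, 10.58 and 10.80, and Ifi27l2a read 12.77, 13.86 and 12.59 against 13.61, 15.22 and 15.03. For both, Keap1_KO C and D lay above every WT array and Keap1_KO B below WT D.

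Leaving out Keap1_KO B or weighting the arrays unequally brought members past the test. Without Keap1_KO B, 569 genes (3.38%) and 3 members passed at limma adjusted p under 0.05: Bst2 and Ifi35 higher and Parp14 lower (-1.27, SE 0.21, adjusted p = 0.0459). Of all genes, 3.22% were called higher and 0.16% lower in that comparison. Keap1_KO C and D both lay above every WT array in 11 members (background 31.4%) and below in 10 (background 18.1%). With limma array weights, which lower the weight of variable arrays (0.35 for Keap1_KO B, the lowest, and 3.38 for WT A, the highest), 1880 genes (11.2%) and 7 members passed. These were Bst2, Ifi35, Irf1 and Irgm2 higher and Parp14, Ddx60 and Iigp1 lower, with adjusted p from 0.0408 to 0.0497. In that fit 11.4% of members were called higher against 9.58% of all genes, and 8.57% lower against 1.59%. Ddx60, Iigp1, Irf1 and Irgm2 passed with weights but not with Keap1_KO B left out (adjusted p = 0.119, 0.125, 0.0991 and 0.0991).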

How the data were processed

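Total RNA (40 ng per sample) was amplified into biotin-labelled cDNA and hybridised to Affymetrix mouse arrays, per the labels' protocols. The design text names Mouse Gene arrays, whereas the cluster identifiers match the annotation of another Affymetrix mouse platform, from which genes were named. The authors deposited log2 values, a single value for each transcript cluster on each array. The submitters' processing notes name RMA, Expression Console and Transcriptome Analysis Console without versions. For the build, the sources used here name none. Values reached 19.93, and 1268 clusters exceeded 16, the log2 ceiling of a 16-bit scanner, so a further rescaling is likely but was not tested, and folds refer to that deposited scale. Medians of the arrays ran from 5.16 to 5.43. The number of arrays limits the precision.

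Of 65528 clusters, 30354 carried 1 gene symbol, 2118 several and 33056 none here; symbols were updated through Entrez identifiers (824 replaced). Where a gene had several clusters (148 genes), the brightest on average was used. Keap1_KO and WT were compared with limma 3.58.1 (lmFit, eBayes, two-sided) in R 4.3.3, checked on simulated data, with p-values adjusted over all 16825 genes, and by exact permutation for single genes. The 13 alternatives covered filter, scaling, weights, prior, cluster rule and each array left out.

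Values are printed for members whose genotypes do not overlap, for up to 2 members with the largest positive and 2 with the largest negative difference per class, and for pathway genes (8 fixed, of which 1 is not reported here, then up to 3 per list by size). Members and lists were chosen with earlier results of these data known. RefSeq promoter windows (250 bases before to 50 after the start) matched 31 members by symbol.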

Additional observations from a re-analysis of the deposited data

How the results depend on the processing

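With all 6 arrays, 0 genes and 0 members passed in limma under every filter, scaling and cluster rule tried, except that an intensity trend in the prior variance gave 1 gene and no member, and array weights gave 1880 genes and 7 members. Leaving out single arrays gave 0 to 569 genes and 0 to 3 members, above 0 only without Keap1_KO B. Array weights moved the sensor median from -0.24 to -0.54, further than the spread between arrays; the other class medians moved by less under each alternative. The median of the antiviral effectors, near 0, took either sign. The median of all members was -0.018 without WT F and -0.0013 with no filter. None of the members named by the rule, nor Igtp and Irgm1, changed direction under the alternatives run. No paired analysis was possible because the genotypes share only the replicate letter D.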
